A study of Mus musculus with 2 samples.

Results

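The genes described here encode the angiotensin and natriuretic peptide systems of adipose tissue: angiotensinogen (Agt), the enzymes Ace and Enpep that process its peptides, the angiotensin receptors Agtr1a and Agtr2, and the natriuretic peptide receptors Npr1, Npr2 and Npr3. They were taken as the probe sets whose only gene symbol in the platform annotation was one of these 8, which gave 11 of 45101 probe sets, for 8 of 18193 genes. Npr3 had 3 probe sets, Ace had 2 and each of the other 6 genes had 1. The mice were of the inbred strain C57BL/6 and ate the high fat diet HFD32 or the normal diet CE-2 for 12 weeks, starting at an age of 6 weeks and ending at 18, when adipose tissue was taken for RNA. Each diet was measured on 1 Affymetrix array of RNA pooled from 3 animals, so there was no replicate and no test between the diets. The sources used here name no allele or agent other than diet, and give neither depot nor sex. Pooling leaves the spread between animals unknown.

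Angiotensinogen is the protein from which renin and then angiotensin-converting enzyme release angiotensin II, which raises blood pressure through its type 1 receptor. Liver is the main source of angiotensinogen in blood, and fat cells make it as well. Natriuretic peptides from the heart act against this system: Npr1 and Npr2 are receptors that make cyclic GMP, and Npr3 takes the peptides up and removes them. Fat cells carry these receptors, and in human fat cells cyclic GMP from Npr1 starts the breakdown of stored lipid.

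The promoters of the 3 genes with the lowest difference between the diets and of the 1 gene with a positive difference, among the members measured well enough to compare, are shown so that their start sites can be set side by side. They are the 250 bases before the transcription start from RefSeq on GRCm38.p6, 5′ to 3′ on the gene's strand, with capitals for the TATA box (TATAAA) and the CCAAT box (CCAAT) on either strand.
Agt, chr8:124569707-124569956, minus strand: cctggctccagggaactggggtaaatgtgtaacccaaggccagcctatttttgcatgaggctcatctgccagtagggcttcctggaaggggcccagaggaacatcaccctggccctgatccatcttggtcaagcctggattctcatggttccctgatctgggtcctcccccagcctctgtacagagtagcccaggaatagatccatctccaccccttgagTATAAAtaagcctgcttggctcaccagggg
Enpep, chr3:129332750-129332999, minus strand: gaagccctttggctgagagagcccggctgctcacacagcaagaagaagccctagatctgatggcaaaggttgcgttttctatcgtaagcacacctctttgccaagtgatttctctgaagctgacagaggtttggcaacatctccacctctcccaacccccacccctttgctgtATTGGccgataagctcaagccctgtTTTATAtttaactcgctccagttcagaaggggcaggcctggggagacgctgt
Npr2, chr4:43631685-43631934, plus strand: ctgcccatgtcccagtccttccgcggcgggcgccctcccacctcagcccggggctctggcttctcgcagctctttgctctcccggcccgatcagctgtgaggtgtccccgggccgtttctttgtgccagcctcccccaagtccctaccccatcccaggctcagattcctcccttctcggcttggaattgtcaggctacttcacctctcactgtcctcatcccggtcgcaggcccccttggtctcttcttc
Npr3, chr15:11907372-11907621, minus strand: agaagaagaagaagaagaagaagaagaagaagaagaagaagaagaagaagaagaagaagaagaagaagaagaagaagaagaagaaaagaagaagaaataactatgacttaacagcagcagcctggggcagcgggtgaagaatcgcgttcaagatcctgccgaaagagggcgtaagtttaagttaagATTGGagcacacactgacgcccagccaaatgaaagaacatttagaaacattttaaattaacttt

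The 7 member genes with a promoter entry have 8 windows, 2 of them for Ace. A TATA box stood in 3 of these 8 windows (those of Agt and Enpep and the first of Ace), against 12.4% of 32851 promoter windows of the same length. In Agt its first base lay at -30 from the start. A CCAAT box stood in 5 of the 8 windows (those of Enpep, Agtr2, Npr1 and Npr3 and the other of Ace), against 33.8% of all windows, and a GC box (GGGCGG, either strand) in 2 of the 8 (the first of Ace, and Npr1), against 32.7%. The Agt window held 0 CpG dinucleotides at 55.6% GC and the Enpep window 6 at 52.4% GC, while the Npr1 window held 21 at 70.4% GC, with a median of 52.4% GC over all windows. The Npr2 window held none of the 3 motifs, and the far end of the Npr3 window was a run of GAA repeats. Motifs were matched by letters alone, and the matches only describe these windows.

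Levels are log2 signals from RMA, the authors' summary over a probe set's probes, on which a difference of 1 is a 2-fold ratio. Differences are the high fat diet array minus the normal diet array. A gene entered the comparison if the mean of its brightest probe set over both arrays reached 5.44, the median of all probe sets (the floor). This held for 6 of the 8 genes, and Agtr2 and Npr1 lay below it. Background was set at the 95th percentile of 81 probe sets of olfactory, vomeronasal and bitter taste receptor genes, 4.96 on the high fat diet array and 4.94 on the normal diet array. Of the 6, 5 had a negative and 1 a positive difference. Their median was -0.41, against a median of 0 over 11778 genes above the floor, of which 49.3% were lower. At 2-fold or more, 1 of the 6 was lower, against 3.29% of all genes, and 0 were higher, against 3.28%. Adipocyte markers showed the labelled tissue on both arrays. All 11 that were measured of 14 were above background, with summed signals of 99881 on the high fat diet array and 101865 on the normal diet array. Their median difference was -0.09, with 9 lower and 2 higher, and Slc2a4 was the lowest at -0.74. Adipoq (adiponectin), Fabp4 and Lep (leptin) had differences of -0.09, -0.033 and 1.08. The value of Fabp4 is that of its brightest probe set, and its other probe sets above the floor ran from -1.52 to -0.41.

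**Figure D1:**
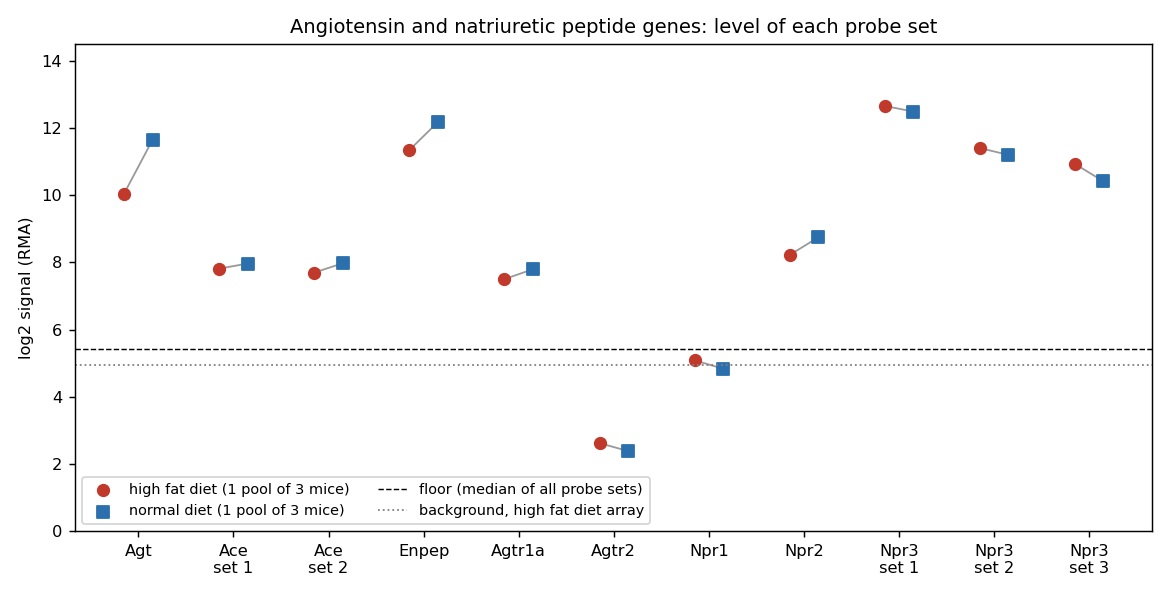
Log2 signal (vertical axis) of each of the 11 probe sets of the 8 genes, with a red circle for the high fat diet array and a blue square for the normal diet array, each 1 pool of 3 mice, and the sets of 1 gene numbered from the brightest. Agt shows the largest step, 10.05 against 11.65, while both points of Agtr2 lie under the background line and those of Npr1 lie on either side of it; levels of different probe sets are not comparable with each other.

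Angiotensinogen mRNA was lower in the high fat diet pool. Agt, the substrate of the whole angiotensin system, had a level of 10.05 on the high fat diet array and 11.65 on the normal diet array, a difference of -1.60 or a 3.04-fold lower signal. Both levels were far above background. Only 177 of 11778 genes (1.50%) had a lower difference. The only error available is that between probe sets of 1 gene, with an SD of 0.27 over 5131 genes, and the gap between 2 probe sets of 1 gene had a 95th percentile of 0.70 over 3105 genes. The difference of Agt exceeded that gap, which covers the probes alone and not animals, dissection or hybridisation. In bulk tissue, fewer cells of a type and less RNA per cell cannot be told apart.

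Hepatocyte transcripts were lower on the same array, and liver also makes angiotensinogen. Each of the 15 hepatocyte markers was lower by more than 2-fold, with a median difference of -5.40 and summed signals of 726 on the high fat diet array and 32902 on the normal diet array. On the high fat diet array their levels lay between 3.17 and 7.91, and 6 of the 15 (Fga, Fgb, Fgg, Cps1, Cyp3a11 and Ambp) were at background there, while levels on the normal diet array lay between 8.08 and 13.15. Alb (albumin), the brightest of the list, had a difference of -5.25 and Serpina1c, an alpha-1-antitrypsin with near-identical gene copies, -6.70. The smallest fold among the 9 markers above background on both arrays was 8.53, for Ahsg. Its level of 4.99 on the high fat diet array lay barely above the background of 4.96, which limits that fold. The 3.04 of Agt, which fat cells make as well, was smaller than the fold of any of the 9. The difference of -1.60 is measured with this liver signal on the normal diet array, and the part of that signal in it was not tested.

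By the size of its difference, Agt stood nearest to Lrp2 (-1.62), Prm2 (-1.64) and Tagln (-1.71) among the genes of the pathway and marker lists. These belong to the kidney, testis and smooth muscle lists, and the likeness rests on 2 arrays only.

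**Figure D2:**
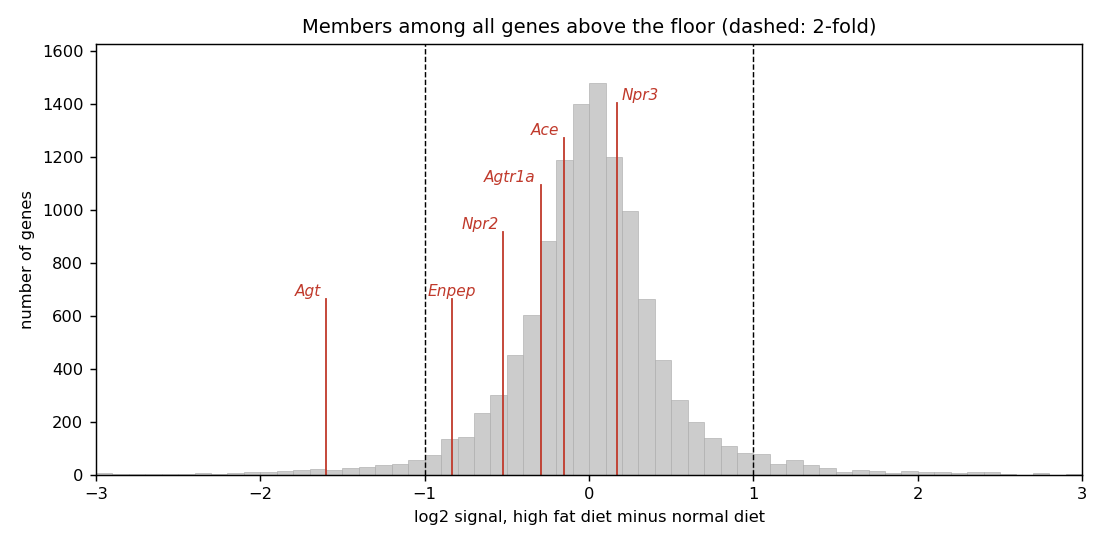
Number of genes (vertical axis) by log2 difference, high fat diet minus normal diet (horizontal axis, bins of 0.1), for the genes above the floor, with red lines (of no meaningful height) at the 6 members and dashed lines at 2-fold. Agt (-1.60) lies outside the dashed lines and Enpep (-0.83) just inside, while Npr3 (0.17) is the only member right of 0; 92 genes lie outside the plotted range.

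Of the 2 enzymes, the one that shortens angiotensin II was lower and the one that makes it differed little. Enpep, aminopeptidase A, which turns angiotensin II into angiotensin III, had 11.34 on the high fat diet array and 12.18 on the normal diet array, a difference of -0.83 or a 1.78-fold lower signal. This was beyond the probe set gap of 0.70, and 538 genes (4.57%) had a lower difference. Ace, the converting enzyme, had 7.82 on the high fat diet array and 7.97 on the normal diet array on its brighter probe set, a difference of -0.15. Its other probe set had 7.70 on the high fat diet array and 7.98 on the normal diet array, a difference of -0.28. Both probe sets of Ace pointed the same way, and both differences lay within the probe set gap. RefSeq gives Ace 2 transcription starts, and the second is known to serve a form made in testis, which these probe sets were not used to separate.

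Enpep is known from the kidney tubule and from pericytes of small vessels, whose markers were also measured. The smooth muscle and pericyte list had 11 of 12 genes lower, of which 4 passed 2-fold. Its median difference was -0.83, with summed signals of 7359 on the high fat diet array and 13576 on the normal diet array. Acta2 and Mcam, its brightest members, had -0.55 and -0.0079, and Cnn1 (calponin), the farthest, had -3.54. The list does not separate smooth muscle from pericytes, and its genes were not uniform. Myh11 and Tagln had -3.25 and -1.71, and Kcnj8 and Abcc9 had -1.02 and -0.90. Notch3 and Pdgfrb had -0.31 and -0.25, and Cspg4, the only one higher, had 0.38. The other probe set of Acta2 above the floor had -1.93. Of the kidney list, 6 markers were measured and 5 were at background on the high fat diet array, against 3 on the normal diet array. Lrp2 (megalin), the only one above the floor, had -1.62, and Umod (uromodulin) was at least 3.96-fold lower. Summed signals of the kidney list were 111 on the high fat diet array and 344 on the normal diet array. The mesothelium list had all 9 genes lower, with a median of -0.89, led by Krt8 at -1.46. The part of these cells in the difference of Enpep was not tested.

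The angiotensin receptors gave no difference beyond the probe set gap. Agtr1a, the type 1 receptor gene through which angiotensin II contracts vessels, had 7.50 on the high fat diet array and 7.80 on the normal diet array, a difference of -0.30. Its sign was that of Agt and Enpep, but 2372 genes (20.1%) had a lower difference. Agtr2, the type 2 receptor gene, had 2.63 on the high fat diet array and 2.39 on the normal diet array, both under background, so no ratio is given. Agtr1b, a second type 1 receptor gene of rodents, was also under background, with 2.72 on the high fat diet array and 2.74 on the normal diet array. Agtr1a was thus the only one of these 3 receptor genes with a signal above background, on both arrays. Among vessel cells, all 11 endothelial markers were lower, with a median of -0.51, and 0 of them reached 2-fold.

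The natriuretic receptors gave differences of both signs, each within the probe set gap. Npr3, the clearance receptor, was the one member above the floor with a positive difference. Its brightest probe set had 12.66 on the high fat diet array and 12.49 on the normal diet array, a difference of 0.17. The second had 11.40 on the high fat diet array and 11.20 on the normal diet array (0.20), and the third had 10.93 on the high fat diet array and 10.41 on the normal diet array (0.52). All 3 pointed the same way, each within the probe set gap of 0.70.

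Npr2, the receptor of C-type natriuretic peptide, stood the other way, with 8.23 on the high fat diet array and 8.75 on the normal diet array, a difference of -0.52 or a 1.43-fold lower signal. In all, 1200 genes (10.2%) had a lower difference than Npr2, and 19.8% of genes had a larger absolute difference. Npr1, the receptor of the atrial and brain peptides, had 5.09 on the high fat diet array and 4.84 on the normal diet array, above background on the high fat diet array but not on the normal diet array, so its difference is given against background, as at least 0.15. The difference of Npr2 minus that of Npr3 was -0.69, -0.72 and -1.04 on the 3 probe sets of Npr3. On the brightest of these it lay within the probe set gap of 0.70, and on the second just beyond it.

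By the size of its difference, Npr3 stood nearest to Plcb1 (0.17), Agtrap (0.17) and Ide (0.16) among the genes of the pathway and marker lists. Differences of this size are common among all genes, 61.0% of which had a larger absolute difference than Npr3. Adipocytes, known to carry Npr3, had markers with a median of -0.09, and the difference of Npr3 was above those of 9 of these 11 markers.

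In all, 5 lists of other genes of these pathways were set beside the members, with 59 of 65 genes measured and 46 above the floor. Among these 46, 2 (4.35%) stood 2-fold or more above the normal diet array and 3 (6.52%) that far below it, against 3.28% and 3.29% of all genes, with a median of -0.10 against 0.

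Of 9 genes of the list of angiotensin peptidases and receptors above the floor, 8 had a positive difference and 2 of these passed 2-fold. Their median was 0.37, and 0.74 over 5 genes with the floor at the 75th percentile of probe sets. The list holds 7 peptidases above the floor, of which 6 were higher, and the other 2 genes are Agtrap and Atp6ap2. Anpep, aminopeptidase N, which shortens angiotensin III, had 7.26 on the high fat diet array and 5.86 on the normal diet array, 2.65-fold higher on its only probe set. Prcp, a carboxypeptidase that inactivates angiotensin II, had 8.94 on the high fat diet array and 7.82 on the normal diet array, 2.17-fold higher, while its other probe set above the floor had a difference of 0.75. Neurolysin, Nln, had 0.77, and neprilysin, Mme, which degrades natriuretic peptides as well as angiotensin I, had 0.74 and, on its other probe set, 0.91 (named outside the rule). Atp6ap2, the prorenin receptor, had 0.28, and the mast cell chymase Cma1 was the only one lower, at -0.26, both also named outside the rule. Ren1 and Lnpep were not analysed here. Macrophages, which express some of these enzymes, had all 12 markers higher, and 8 of these passed 2-fold. Their median was 1.44 and their summed signals were 26021 on the high fat diet array and 12172 on the normal diet array. Csf1r and C1qb had 0.61 and 1.04, and Cd68 had 2.30. The 5 epididymis markers were also higher on the high fat diet array. The part of macrophages or of epididymis in the peptidase differences was not tested.

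Of the 10 genes of the natriuretic list above the floor, 8 were lower and 2 higher, 0 of them by 2-fold. These 10 encode processing enzymes, effectors of cyclic GMP and the 2 subunits of soluble guanylate cyclase described below. Their median was -0.35, and -0.043 over 5 genes with the floor at the 75th percentile of probe sets. The ligand genes Nppa, Nppb and Nppc lay below the floor. Nppa, the precursor of atrial natriuretic peptide, had 3.57 on the high fat diet array and 6.71 on the normal diet array, at least 3.38-fold lower against background. Nppb, the brain peptide, had 4.87 on the high fat diet array and 5.36 on the normal diet array, at least 1.32-fold lower, and Nppc was under background on both arrays (both named outside the rule). Both subunits of soluble guanylate cyclase, the nitric oxide receptor that also makes cyclic GMP, were lower. On their brightest probe sets this was nearly 2-fold, with Gucy1a1 at -0.97 and Gucy1b1 at -0.96. Other probe sets above the floor had -0.87 and -0.48 for Gucy1a1 and -0.89 for Gucy1b1. Pde2a, a phosphodiesterase that cyclic GMP activates, had 11.26 on the high fat diet array and 10.36 on the normal diet array (0.90), with 1.13 and 0.47 on its other probe sets. Corin, which activates the atrial peptide in the heart, was under background on both arrays (named outside the rule). The smooth muscle and pericyte list, whose cells are rich in soluble guanylate cyclase, had a median of -0.83, and skeletal muscle markers had -1.55, with 7 of 8 lower. The part of these cells was not tested.

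Of the corticosteroid axis, angiotensin II drives the release of aldosterone, and the list also holds glucocorticoid genes. Of its 8 genes above the floor, 7 were lower and 1 of these passed 2-fold. Their median was -0.16. Hsd11b1, which regenerates active glucocorticoid inside fat and liver cells, had 10.66 on the high fat diet array and 11.98 on the normal diet array, a difference of -1.32, and liver transcripts were lower on the same array. Nr3c1, the glucocorticoid receptor, had -0.82, and its other probe sets above the floor ran from -1.02 to -0.40. Hsd11b2, which inactivates the hormone, had 0.49. The mineralocorticoid receptor Nr3c2 had -0.13 and the aldosterone synthase gene Cyp11b2 was under background on both arrays, both named outside the rule.

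Kinin, endothelin and adrenomedullin genes had 6 of 8 lower, and 1 of these passed 2-fold. Their median was -0.043, but 0.084 with the mean over all probe sets of a gene and 0.34 without IDs ending in _s_at, _x_at or _a_at, so its sign depended on the choice of probe set. Kng1, the kininogen that liver secretes, had 4.62 on the high fat diet array and 8.29 on the normal diet array, at least 10.1-fold lower against background. Klkb1, prekallikrein, also a liver product, lay below the floor and was at least 1.49-fold lower. Calcrl, part of the adrenomedullin receptor, had -0.42 and adrenomedullin itself, Adm, 0.41. Couplers of the angiotensin receptor had 7 of 11 lower, and 1 of these passed 2-fold. Their median was -0.39. Rgs5, a brake on G protein signalling and a known pericyte transcript, had 11.10 on the high fat diet array and 12.19 on the normal diet array, a difference of -1.09, and its 4 probe sets ran from -1.25 to -0.98. Plcb4, a phospholipase, had -0.85, and Rgs4 had -0.79 and, on its other probe set above the floor, -0.25.

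**Figure D3:**
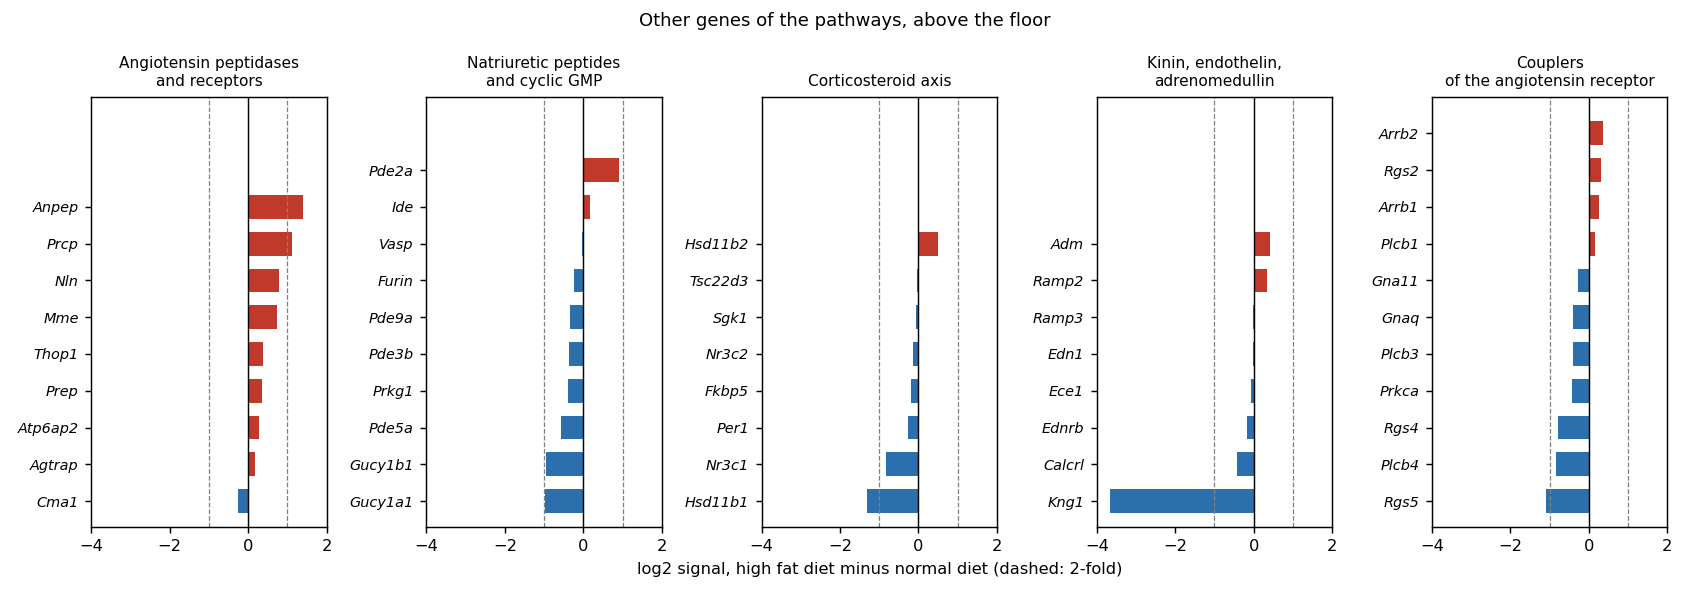
Log2 difference, high fat diet minus normal diet (horizontal axis), of the 46 other pathway genes above the floor, 1 bar a gene in 5 panels, red where the high fat diet array was higher and blue where it was lower, with dashed lines at 2-fold. All bars but Cma1 point right in the panel of angiotensin peptidases and receptors, while Gucy1a1, Hsd11b1, Kng1 and Rgs5 stand at the bottom of the others.

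**Figure D4:**
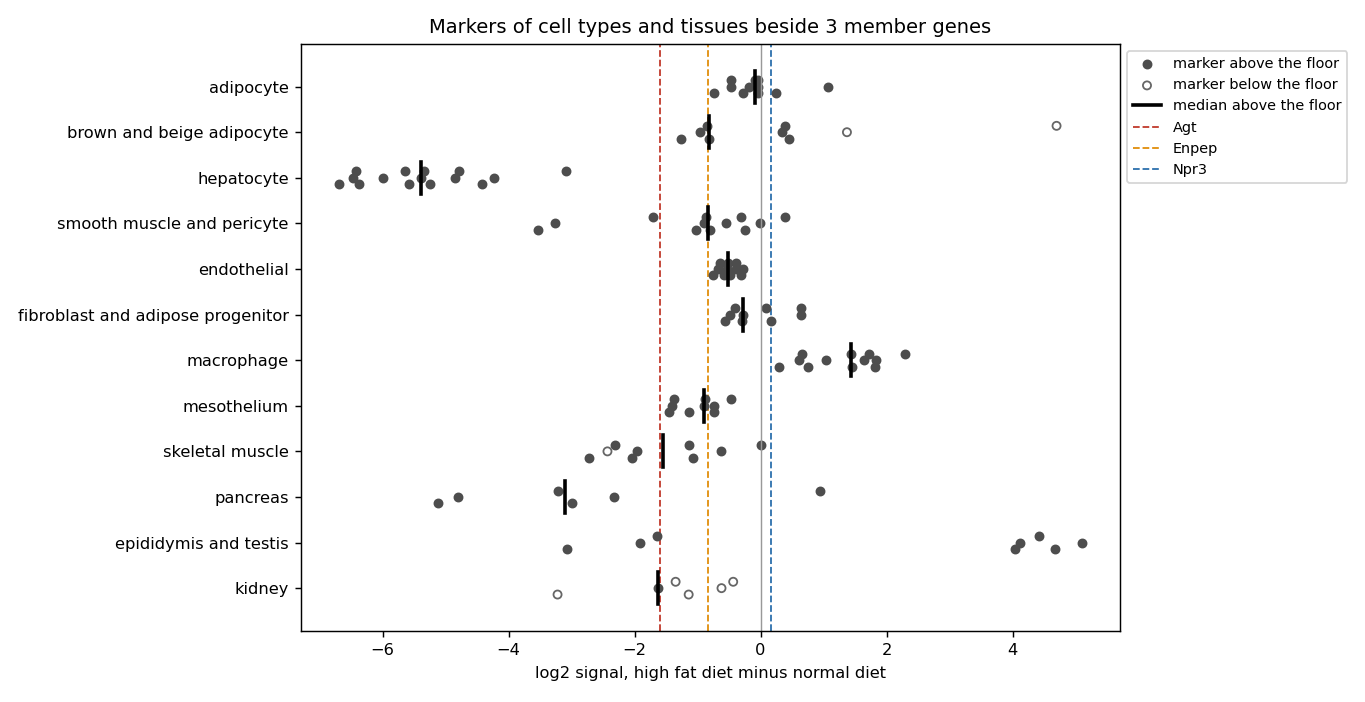
Log2 difference, high fat diet minus normal diet (horizontal axis), of each measured marker in 12 lists (1 row each), filled above and open below the floor, with the median of those above the floor as a bar, except for the epididymis and testis row, whose genes lie on both sides, and dashed lines at Agt (-1.60), Enpep (-0.83) and Npr3 (0.17). All 15 hepatocyte markers lie left of Agt, and all 12 macrophage markers lie right of Npr3. Medians of several lists lie near Enpep: smooth muscle and pericyte (-0.83), brown and beige adipocyte (-0.82) and mesothelium (-0.89).

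The remaining marker lists are given as values. Fibroblast and adipose progenitor markers had 5 of 9 lower with a median of -0.28, with Dcn at -0.28, Col3a1 at 0.16 and Lum at 0.65. Brown and beige adipocyte markers had 4 of 7 above the floor lower with a median of -0.82, but the median over all 9 was 0.35, so its sign turned with the floor. Among them were Cox8b at 0.45, Cidea at -0.82 and Otop1, below the floor, at least 5.63-fold higher. Pancreas markers had 5 of 6 lower, all 5 by more than 2-fold, and a median of -3.11. The 5 epididymis markers (Gpx5, Lcn8, Lcn9, Adam7 and Cst12) were higher and the 3 testis markers (Tnp1, Prm1 and Prm2) lower, each by more than 2-fold, with 4 of the epididymis markers at background on the normal diet array.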

How the data were processed

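Adipose tissue RNA was measured on 2 Affymetrix arrays, 1 per diet. The deposited log2 signals were made by the authors with RMA, per the submitters' processing notes, with no version stated in the sources used here. That they are log2 was read from their range, 2.06 to 14.21 for the high fat diet and 2.04 to 14.28 for the normal diet. The median was 5.40 for the high fat diet and 5.47 for the normal diet. The number of arrays limits the precision.

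Of the non-control probe sets, 34945 had 1 symbol in GEO's annotation of the platform, which may be dated, and 932 probe sets had several and were not used. List genes were matched by symbol or Entrez ID through RefSeq for GRCm38.p6. For each of 18193 genes the brightest probe set over both arrays was used. Where 1 array was at background, the ratio was computed against background and is written "at least". Sequences are from RefSeq, matched by symbol for 7 of 8 members.

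The members and lists were chosen with earlier results of these data known. Named genes were all members, the pathway genes at 2-fold or more and the 3 farthest of each pathway list, 2 bright and 1 far gene of each marker list (not all printed), and the 3 nearest to the highest and lowest member. Python 3.11.15, pandas 2.3.3, numpy 2.4.6 and statsmodels 0.14.6 were used, and the procedure was tested on simulated data. Alternatives changed the probe set, the normalization (quantile, or a lowess of span 0.3), the treatment of background and the floor.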

Additional observations from a re-analysis of the deposited data

How the results depend on the processing

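For the 6 members above the floor, 5 alternatives gave 30 values, of which 15 changed at all, since most members have 1 probe set and lie above background. These 15 kept their sign and moved by less than the SD between probe sets of 1 gene, 0.27. Agt ran from -1.62 to -1.60, Enpep from -0.84 to -0.83, Npr2 from -0.53 to -0.52, Agtr1a from -0.31 to -0.30, Ace from -0.28 to -0.15 and Npr3 from 0.15 to 0.30. The counts of members at least 2-fold lower (1) and higher (0) were the same under all 7 alternatives. Medians of 4 of the 5 pathway lists moved by more than the SD divided by the square root of their number of genes. With the mean over all probe sets of a gene, the peptidase list had 0.26, the natriuretic list -0.23, the couplers -0.23 and the kinin list 0.084, the other sign from its -0.043. With the floor at the 75th percentile, 7.60, the peptidase list had 0.74 over 5 genes and the natriuretic list -0.043 over 5 genes. Leaving out IDs that end in _s_at, _x_at or _a_at, the kinin list had 0.34 over 5 genes. The mineralocorticoid and glucocorticoid list ran from -0.19 to -0.10. The median of all genes stayed within 0.1 of 0. No paired analysis was possible because each diet has 1 array. Agtr2 had no usable value under any setting, as both signals were under background, and Npr1 was under background on the normal diet array.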
